A study of Rattus norvegicus with 8 samples.

Results

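The cells described here were macrophages of the rat spinal cord that carried Mrc1 or Cd163 RNA and little RNA of microglia. They numbered 318 of the 68658 cells deposited for 8 libraries, each made from cells caught in droplets and read at the 3′ end of their RNA. The members were chosen by raw counts of UMIs, the tags that tell single RNA molecules apart. A member had at least 1000 UMIs with at most 10% of them on mitochondrial genes, at least 3 UMIs of Tyrobp, at least 10 of C1qa, C1qb and C1qc together, and at least 3 of Mrc1 and Cd163 together. It also had at most 2 UMIs of P2ry12, Tmem119 and Sall1 together, at most 1 of Fabp4, fewer than 5 of Cxcl1 and at most 1 of Mki67 and Top2a together. The levels of these 13 genes are therefore given as a description, without a test.

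All libraries came from a 10-mm piece of the T9 cord of female Wistar rats aged 8 weeks, taken 7 days after surgery. In the sham group the lamina was removed and the cord was left alone. In the mild, moderate and severe groups a 10 g weight then fell on the cord from 12.5 mm, 25 mm and 50 mm. Each group had 2 libraries, called replicates 1 and 2. The study's text counts as many cords as libraries, while the labels do not name the animals, and the p-values measure the spread between these libraries.

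Border-associated macrophages live in the meninges, around vessels and in the choroid plexus, and not among the neurons where microglia sit. They are known for the mannose receptor Mrc1, for Cd163, the scavenger receptor that takes up haemoglobin bound to haptoglobin, and in part of the cells for Lyve1, a receptor for hyaluronan. After injury of the cord they share the tissue with microglia and with macrophages that come from blood monocytes, and each of these can change its marker genes.

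The members were 54 and 21 cells in replicates 1 and 2 of the sham group, 33 and 53 in mild, 79 and 46 in moderate, and 14 and 18 in severe libraries. Of the 57296 cells within the limits on UMIs and mitochondrial genes, 18951 had the Tyrobp and C1q counts of macrophage-type cells. The median member had 9788 and 7363 UMIs in sham, 15977 and 10994 in mild, 7642 and 9799.5 in moderate, and 15454 and 13220 in severe libraries. The 28 pairs of libraries shared 571 cell barcodes in all, and none of them marked a member in both libraries. Doublets were kept, and 5, 0, 5, 6, 7, 1, 2 and 0 members of the libraries in the order sham to severe were among the 7.7% of cells with the highest doublet scores.

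Some libraries stood apart before any comparison. In sham replicate 1 the summed level of the 10 neutrophil markers in members was 10646 CPM, the UMIs of a gene scaled to a total of 1000000 per library, with S100a9 at the top. In the other 7 libraries it was 214 to 805 CPM. The oligodendrocyte markers summed to 1114 CPM in sham replicate 1 and to 2071 and 3541 CPM in the mild libraries, and to at most 334 CPM in the other 5. The erythroid markers reached 9273 CPM in severe replicate 2, with Hba-a2 at the top, and at most 136.5 CPM elsewhere. The fibroblast markers summed to 737 CPM in sham replicate 1 and 1259 CPM in mild replicate 1 and to at most 106 CPM elsewhere. The part of such RNA in the results was not tested.

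The severe libraries stood apart from the others in some genes in members, in the microglia gate and in T cells alike. One of them was Rps19, which encodes a ribosomal protein. In members it lay at 247 and 311 CPM in sham, 50.6 and 51.2 in mild, 63.2 and 89.3 in moderate, and 1416 and 1169 in severe libraries. In T cells, gated by at least 3 UMIs of Cd3 genes, the severe libraries held 2708 and 2361 CPM of Rps19 and the other 6 between 53.2 and 432 CPM, with 3 T cells in sham replicate 2. Sumo4 was at 4.22 and 0 CPM in severe members and between 38.8 and 247 CPM in the other 6 libraries, and at 14.5 and 5.44 CPM in severe T cells against 54.8 to 471 CPM in the others. Ribosomal genes and genes named by a locus number have near-identical copies, between which the counting can split reads, so their values are uncertain.

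Whether the name of border macrophages holds was checked with Folr2, a folate receptor that goes with Mrc1 and Cd163 in these cells and that the rule did not use. At least 1 UMI of Folr2 was found in 97.5% to 100% of the members of each library. Its level in members was 820 and 691 CPM in sham, 695 and 777 in mild, 801 and 670 in moderate, and 561 and 757 in severe libraries. In the microglia gate, the cells with the same limits but at least 3 UMIs of P2ry12, Tmem119 and Sall1 and at most 2 of Mrc1 and Cd163, Folr2 lay at 105, 104, 267, 340, 232, 507, 202 and 198 CPM in the same order. The members were above the microglia gate in 8 of 8 libraries, and the lowest member library was above the highest microglia library. Folr2 did not set the members apart from every kind of macrophage, since cells that met the rule but for 2 UMIs of Mrc1 and Cd163 held 716 CPM and macrophages with Fabp4 656 ± 69.9 CPM (SD, n = 4 libraries).

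Shares of cells with a UMI depend on depth and on free RNA. After thinning each cell to 1000 UMIs, Folr2 was found in 64.8% and 28.6% of members in sham, 48.5% and 69.8% in mild, 57.0% and 39.1% in moderate, and 57.1% and 33.3% in severe libraries. In T cells, which should lack the gene, the thinned share was at most 7.81%, with median depths of 1928.5 to 6298 UMIs. In moderate replicate 2 the thinned share was higher in the microglia gate, at 50.0% of 24 cells, than in members. In the other 7 libraries it was between 4.76% and 30.1% in the microglia gate.

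**Figure D1:**
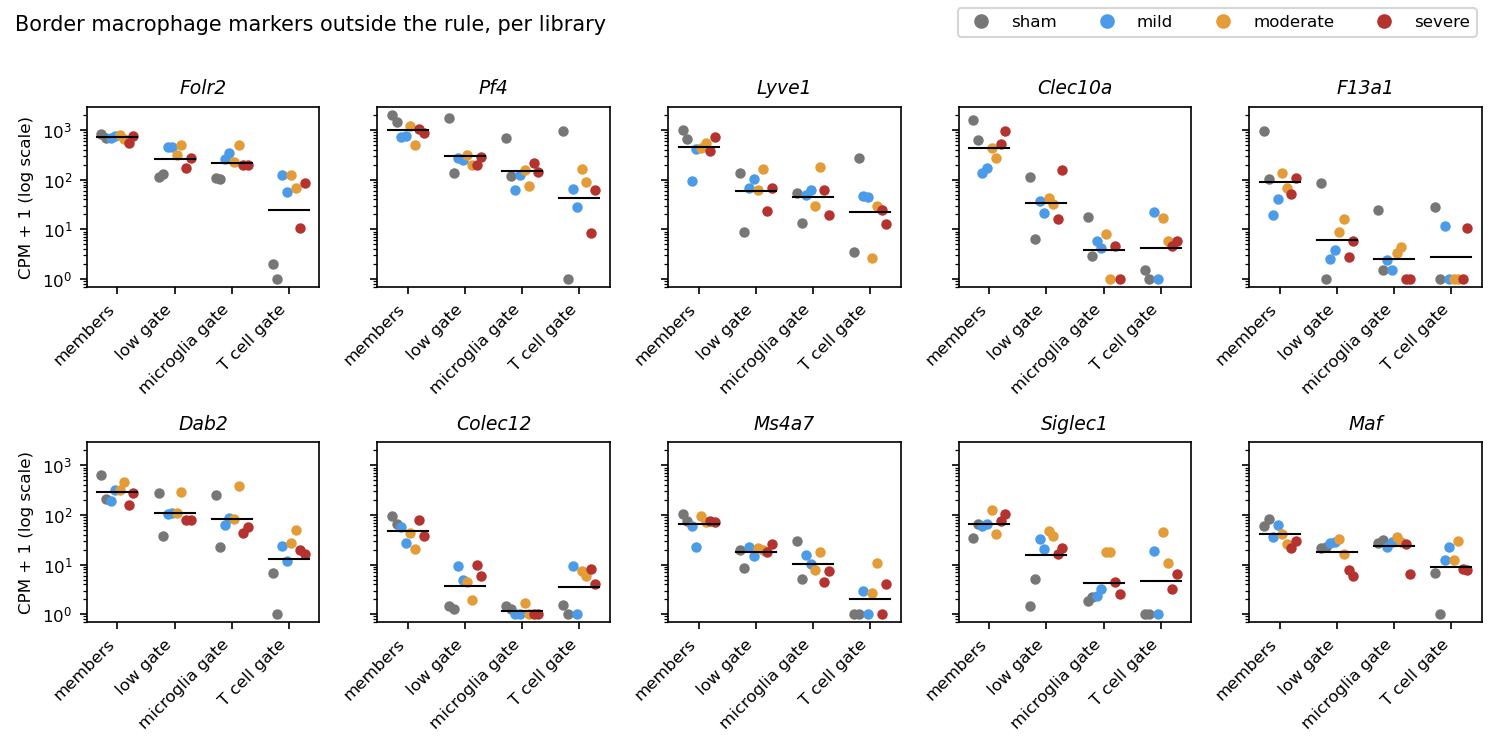
Level of 10 border macrophage markers outside the rule in members, in the Mrc1/Cd163-low gate, in the microglia gate and in T cells, as CPM + 1 on a log scale. A point is a library coloured by group and a line the mean of log values, and for Folr2 the members of all 8 libraries lie between 561 and 820 CPM, above every microglia point.

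RNA of other cell types in members was uneven. The 14 microglia markers, 3 of which the rule capped, summed to 509 to 1259 CPM in members and to 1872 to 5138 CPM in the microglia gate. P2ry12 was at 6.42 and 50.7 CPM in the sham libraries and between 7.24 and 20.2 CPM in the injured ones, by the rule. The dendritic cell markers summed to at most 27.3 CPM, with Itgax as the most abundant in 7 libraries and all 8 genes at 0 in severe replicate 2. The infiltrating monocyte markers summed to a median of 632 CPM, and S100a4, a calcium-binding protein gene of many motile cells, was their most abundant gene in all 8 libraries. Slpi led the neutrophil markers in 6 libraries.

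Mrc1 was found in all 318 members and Cd163 in 78 of them, 24.5%, and no member was counted through Cd163 alone. Mrc1 lay at 1057 and 545 CPM in sham, 233 and 386 in mild, 504 and 482 in moderate, and 341 and 417 in severe libraries. The share of members with Cd163 was 55.6% and 38.1% in sham, 12.1% and 17.0% in mild, 17.7% and 15.2% in moderate, and 7.14% and 27.8% in severe libraries. Both sham libraries were above all 6 injured libraries in both genes, whose counts chose the cells.

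The cells did not break off at the limit of 3 UMIs. The 110 members with exactly 3 UMIs of Mrc1 and Cd163 held 681 CPM of Folr2, 793 CPM of Pf4, 221 CPM of Lyve1 and 211 CPM of Clec10a. The 207 cells with 2 UMIs that met every other condition held 716, 680, 177 and 216 CPM of these genes. The 3508 cells with none held 282, 315, 58.2 and 19.1 CPM. The members are thus the upper end of a range of Mrc1 counts.

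The share of members among all cells kept was 0.585% (95% Wilson interval 0.449% to 0.762%) in sham replicate 1 and 0.794% (0.520% to 1.21%) in sham replicate 2. It was 0.440% and 0.627% in the mild libraries, 0.727% and 0.706% in the moderate libraries, and 0.351% (0.209% to 0.588%) and 0.222% (0.141% to 0.351%) in the severe libraries. These intervals cover counting error only. The severe libraries were the lowest, and both moderate libraries lay above both mild ones. The sham libraries lay above both severe ones and overlapped the mild and the moderate libraries. The lowest place depended on depth and on the limit. Thinned to 3000 UMIs per cell, the shares were 0.105% and 0.235% in mild and 0.340% and 0.169% in severe libraries. With at least 5 UMIs of Mrc1 and Cd163 they were 0.120% and 0.142% in mild and 0.200% and 0.123% in severe libraries. Mild replicate 1 was the lowest in both settings.

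Against the height of the drop over the 8 libraries, Pearson's r was -0.71 (exact permutation p = 0.0544, adjusted 0.163 over 3 tests) and Spearman's rho was -0.54 (exact permutation p = 0.190, adjusted 0.286), both two-sided. The mean share was 0.512% ± 0.206 in the 6 injured libraries and 0.689% ± 0.148 (SD) in the 2 sham libraries, a difference of -0.18 percentage points (exact permutation p = 0.357, two-sided, adjusted 0.357). It was -0.07 points without sham replicate 2 and -0.28 without sham replicate 1. The smallest p that 6 against 2 libraries allow is 0.0714. Without the 2 severe libraries, which are also the 2 farthest from the median height, r was 0.10, so the relation rested on them. With the cells thinned to 3000 UMIs the difference between injured and sham libraries was -0.28 points. With at least 5 UMIs of Mrc1 and Cd163 it was -0.22, and both were at this smallest p. Without the top doublet scores and among macrophage-type cells it was -0.21 and -3.07 (exact permutation p = 0.357 and 0.429). Pearson's r with the drop height was weaker after the thinning, at -0.43 (exact permutation p = 0.299).

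**Figure D2:**
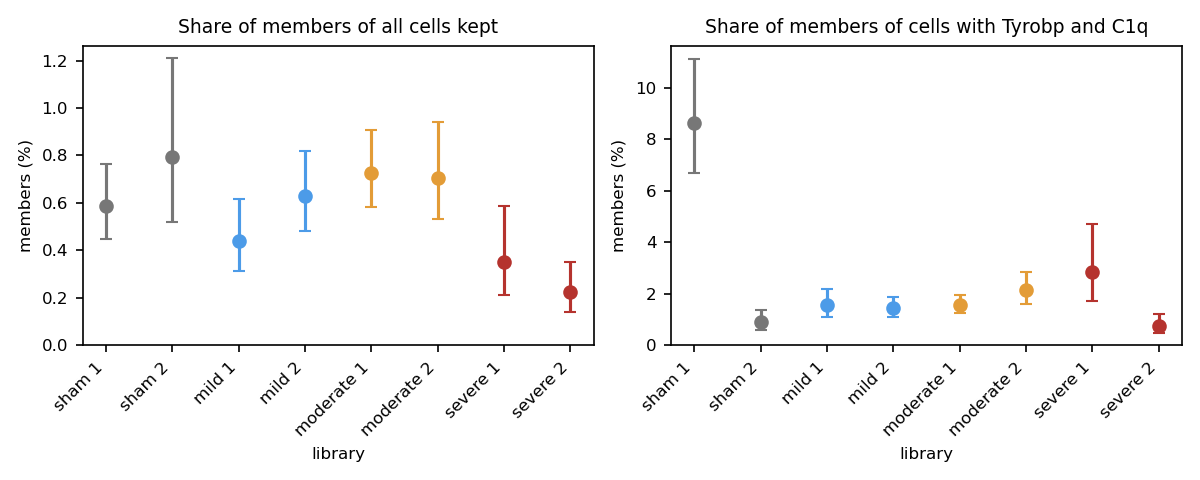
Share of members in each library, in percent of all cells kept (left) and of cells with Tyrobp and C1q (right). Points are libraries coloured by group and bars are 95% Wilson intervals, and the severe libraries lie lowest on the left at 0.351% and 0.222%, while sham replicate 1 stands apart on the right at 8.65%.

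The denominator decided how the libraries ranked. Among macrophage-type cells the members made up 8.65% in sham replicate 1 and 0.901% in sham replicate 2, where the microglia gate held 1089 cells, and between 0.751% and 2.84% in the injured libraries. The 2 sham libraries lay on either side of 5 of the 6 injured ones.

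The members were then compared with the microglia gate within libraries, to ask which genes set them apart from the resident macrophage of the cord. The UMIs of each gate were summed per library, and the 6 sham, mild and moderate libraries, with at least 20 cells in both gates, were fitted with edgeR's quasi-likelihood test and the library as a block. Of 5430 genes tested, 381 (7.02%) were higher and 372 (6.85%) lower in members at an adjusted p under 0.05. The filter on low counts asked for 15.5 CPM in as many libraries as a gate had, and 247 of the higher and 193 of the lower genes met it in both gates. A gene that met it only in the gate where it was higher had its direction given by the filter, and such genes are described without a p. Without moderate replicate 1, the library with the most members, 422 genes passed in place of 753. Scaled by library size alone the split was 311 higher and 557 lower, and the median of all genes was -0.11 in place of -0.04 on the log2 scale.

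Of the 12 border macrophage markers that the files hold and the rule did not use, 10 passed the filter on low counts. Of these, 4 passed the filter in the microglia gate alone as well. These were Pf4, Folr2, Dab2 and Maf, and all 4 were higher in members, with a median log2 difference of 1.77 beside -0.04 over all genes tested. The other 6, Lyve1, Clec10a, Colec12, F13a1, Siglec1 and Ms4a7, passed the filter through the members only. Pf4, a platelet factor chemokine gene that macrophages also express, lay at 1114 ± 562 CPM in members and 207 ± 248 CPM in the microglia gate (SD, n = 6 libraries), with a log2 difference of 2.90 ± 0.25 (SE, adjusted p = 6.54e-05). Folr2 lay at 742 ± 64.6 and 259 ± 153 CPM (1.81 ± 0.29, adjusted p = 0.00200). The endocytic adaptor Dab2 differed by 1.73 ± 0.28 (adjusted p = 0.00220) and the transcription factor gene Maf by 0.89 ± 0.21 (adjusted p = 0.0164). Maf was higher in members in 5 of 6 libraries and the other 3 in 6 of 6. Of the markers given as a description, Lyve1 lay at 531 ± 309 CPM in members and 63.6 ± 59.3 CPM in the microglia gate.

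Clec10a, a lectin that binds galactose-type sugars, lay at 1606 and 640.3 CPM in members of sham, 134 and 172 in mild, 441 and 269.9 in moderate, and 531 and 963 in severe libraries. In the microglia gate it was at most 16.8 CPM in any library, so the 2 gates did not overlap. Colec12, a scavenger receptor with a collagen-like stalk, had 154 UMIs in members and 6 in the microglia gate of the 6 libraries.

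F13a1, the coagulation factor that crosslinks fibrin, lay at 983 CPM in sham replicate 1 and between 18.1 and 137 CPM in the members of the other 7 libraries. Over the 6 libraries it was at 5.29 ± 9.07 CPM in the microglia gate. Siglec1, a sialic acid receptor of resident macrophages, lay at 64.3 ± 31.6 CPM in members and 6.55 ± 7.97 CPM in the microglia gate, and Ms4a7 at 70.6 ± 29.1 and 13.55 ± 9.07 CPM.

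Among the 10 largest rises that met the rule for named genes were also Tgfbi, a matrix protein gene induced by TGF-beta (5.14 ± 0.35), and the interferon-induced membrane protein gene Ifitm1 (4.26 ± 0.44, at 1627 ± 798 against 93.0 ± 50.2 CPM). Ly49si1 (6.17), RGD1559482 (5.16), Fxyd2 (5.02), Zfat (4.34) and Slc28a2 (4.26), a nucleoside transporter gene, completed them. These 7 also passed the filter through the members only, so their log2 differences are a description.

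The promoters of the border markers are shown because these genes were all higher in members, 6 of them by the filter. Sequences of 250 bases before the gene start were taken from RefSeq on GRCr8, a later build than the Rnor_6.0 of the counts, and matched by symbol for 7 of the 10 markers. They were searched on both strands for GAGGAA, the core that the macrophage factor PU.1 binds, and for TGCTGAC, a part of the site that Maf factors bind. These motifs do not overlap each other. GAGGAA was in 2 of the 7, F13a1 and Colec12, and in 23.3% of all 33469 promoters of this length. TGCTGAC was in 0 of the 7 and in 3.53% of all. Folr2, the marker of the check above, Lyve1 and F13a1, of the markers that differed among members, the second with a match, are shown 5′ to 3′ on the gene's strand, with GAGGAA in capitals. A match describes the letters only. Folr2's lies at chr1:165630383-165630632 on the minus strand, Lyve1's at chr1:174410978-174411227 on the minus strand and F13a1's at chr17:28020947-28021196 on the plus strand.
Folr2: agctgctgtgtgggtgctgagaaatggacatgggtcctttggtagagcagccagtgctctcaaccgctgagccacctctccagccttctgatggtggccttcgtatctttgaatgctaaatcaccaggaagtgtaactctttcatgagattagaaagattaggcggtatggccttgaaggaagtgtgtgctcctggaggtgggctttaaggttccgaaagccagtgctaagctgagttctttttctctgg
Lyve1: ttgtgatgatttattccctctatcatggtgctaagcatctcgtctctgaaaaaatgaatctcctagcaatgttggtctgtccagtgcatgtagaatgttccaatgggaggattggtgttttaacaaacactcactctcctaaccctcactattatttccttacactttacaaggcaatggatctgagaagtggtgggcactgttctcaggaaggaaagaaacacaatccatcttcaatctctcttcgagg
F13a1: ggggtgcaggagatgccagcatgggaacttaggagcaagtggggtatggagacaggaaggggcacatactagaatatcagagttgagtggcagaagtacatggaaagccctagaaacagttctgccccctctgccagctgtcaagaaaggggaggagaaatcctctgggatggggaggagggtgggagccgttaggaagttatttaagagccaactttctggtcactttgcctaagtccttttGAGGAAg

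Genes that handle iron and heme were in part higher in members. Of the 23 genes of this list, 12 were tested and 8 rose, beside 0 that fell. Of the 7 that passed the filter in both gates, 5 rose, with a median log2 difference of 0.87. The ferritin chains Fth1 and Ftl1, which store iron, differed by 0.66 ± 0.15 (adjusted p = 0.0159) and 1.03 ± 0.14 (adjusted p = 0.000782), each in 6 of 6 libraries. Hmox1, which opens the heme ring, lay at 1325 ± 675 CPM in members and 711 ± 474 CPM in the microglia gate (1.04 ± 0.25, adjusted p = 0.0188). Blvrb, a biliverdin reductase that passed the filter through the members only, differed by 2.04 ± 0.26 and the heme transporter Slc48a1 by 0.87 ± 0.20. Without moderate replicate 1 the adjusted p was 0.0654 for Fth1 and 0.0618 for Hmox1, and Hmox1 also missed the threshold without sham replicate 2. Ftl1 was uneven among members, with 17719 CPM in sham replicate 2 and 23666 and 21467 CPM in the severe libraries, against 4708 to 6146 CPM in the other 5.

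Antigen presentation differed in the same direction. Of the 5 tested genes of MHC class II, 4 rose, among them the 3 that passed the filter in both gates. Cd74, the invariant chain, lay at 1155 ± 835 and 494 ± 522 CPM (1.45 ± 0.32, adjusted p = 0.0130) and RT1-Da at 432 ± 315 and 160 ± 212 CPM (1.91 ± 0.48, adjusted p = 0.0240). Both missed the threshold without moderate replicate 1, where the adjusted p of RT1-Da was 0.0995, and RT1-Da also without sham replicate 2. In members Cd74 was between 1844 and 1927 CPM in both sham libraries and mild replicate 1, 1570 CPM in severe replicate 2, 940 in severe replicate 1, 749 in moderate replicate 1, and 253 and 235 CPM in mild replicate 2 and moderate replicate 2. The 2 mild libraries thus lay near the highest and near the lowest of the 8.

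Chemokine genes went both ways. Of 14 tested, 4 rose and 6 fell. Ccl6 lay at 631 ± 383 CPM against 137 ± 111 (2.44 ± 0.37, adjusted p = 0.00155) and Ccl7, which draws monocytes, at 383 ± 260 against 85.0 ± 58.7 CPM (2.17 ± 0.23, adjusted p = 0.000193). Ccl3 and Ccl4, which microglia release when activated, fell by 0.95 ± 0.18 (adjusted p = 0.00573) and by 1.16 ± 0.23 (adjusted p = 0.00744) on the log2 scale. Of 9 tested genes of inflammatory cytokines and their feedback, 4 fell and none rose. These were the NF-kappaB feedback genes Nfkbia (-0.59 ± 0.15) and Nfkbiz (-0.88 ± 0.15), the activation marker Cd83 (-0.59 ± 0.13) and the adhesion molecule Icam1 (-1.14 ± 0.20), which passed the filter through the microglia gate only. Nfkbia was lost without sham replicate 2, mild replicate 1 or moderate replicate 1 (adjusted p up to 0.0834), and Cd83 without moderate replicate 1.

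**Figure D3:**
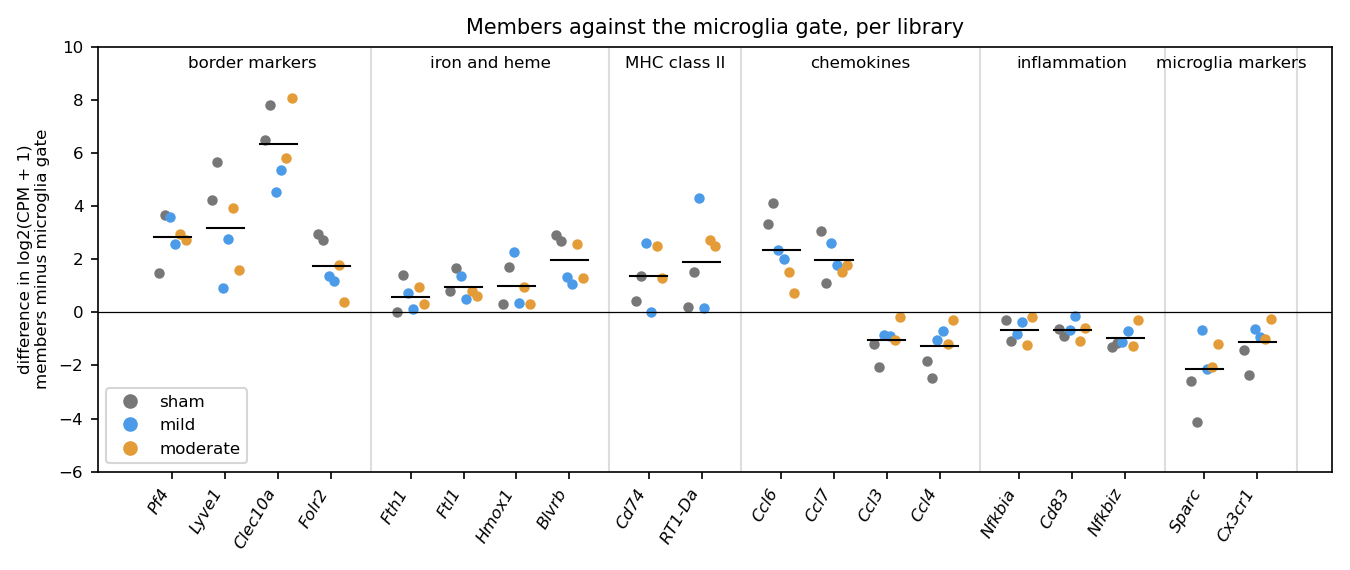
Difference in log2(CPM + 1) between members and the microglia gate for 19 genes in the 6 libraries with at least 20 cells in both, with 1 point per library and a line at the mean. Clec10a lies highest, Ccl6 and Ccl7 lie above 0 and Ccl3 and Ccl4 below 0 in every library.

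Genes of lipid handling and foamy macrophages were in part higher in members. Of 23 tested, 8 rose, 1 fell and 14 did not pass. Apoe, the main lipid carrier of the cord, lay at 35065 ± 16012 CPM in members and 13169 ± 9079 CPM in the microglia gate (1.44 ± 0.35, adjusted p = 0.0186), and was higher in 5 of 6 libraries. It missed the threshold without sham replicate 2, mild replicate 2 or moderate replicate 1, with adjusted p up to 0.0659. In members Apoe was 3494 CPM in sham replicate 1 and between 35949 and 71601 CPM in the other 7 libraries. Gpnmb, a glycoprotein of lipid-laden macrophages, lay at 300.3 CPM in sham replicate 1 and 2149 to 3459 CPM elsewhere. Cd68, a lysosomal protein, was listed among the scavenger and endocytic receptors. It differed by 1.78 ± 0.26 and was higher in 6 of 6 libraries. Of 18 tested genes of that list, 7 rose and 2, Fcgr3a and Mertk, fell. Of the 12 that passed the filter in both gates, 3 rose and 2 fell, with a median log2 difference of 0.02.

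Of 28 transcription factor genes tested, 4 rose and 3 fell, beside 7.02% and 6.85% of all genes, and 21 did not pass. Among them Cebpd (0.65 ± 0.19), Id3 (2.12 ± 0.29) and Maf were higher, and Mef2c (-0.91 ± 0.11), Irf8 (-0.66 ± 0.15) and Jun (-0.45 ± 0.14) lower in members. Of the genes named here, Id3 and Mef2c passed in each fit that left out 1 library. Irf8 was lost without moderate replicate 1 and Maf without sham replicate 1 or mild replicate 2. Cebpd and Jun were lost in 3 and 5 of the 6 fits, with adjusted p up to 0.117 and 0.142. Of 7 tested microglia markers outside the rule, 6 fell, among them the fractalkine receptor Cx3cr1 (-0.95 ± 0.19) and Sparc (-1.97 ± 0.34), a matrix protein gene. Further falls among the 10 largest were the complement gene C3 (-2.28 ± 0.27), the protease inhibitor Cst3 (-1.83 ± 0.21), the fatty acid receptor Gpr84 (-1.78 ± 0.23, past the filter in the microglia gate only), Gpd1, Clec2l, Golm1, Resp18 and Grxcr1. Of 8 oligodendrocyte markers 7 fell as well, though 1 of the 8 passed the filter in both gates, and their summed level was 57.1 to 3541 CPM in members and 152 to 8504 CPM in the microglia gate. Of 26 gene lists, 18 held a gene that passed and 8 held none. Among these 8, the lists of dendritic cells, B cells, neurons, endothelial cells and erythroid cells had no gene tested, so they could hold no call.

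The Mrc1/Cd163-low gate met every condition of the rule but had at most 2 UMIs of Mrc1 and Cd163, and so differed from the members by these genes alone in its definition. Over the same 6 libraries, 222 of 7315 genes (3.03%) were higher and 163 (2.23%) lower in members, and 146 and 111 of these passed the filter in both gates. Without moderate replicate 1 the count was 122 genes in place of 385. The 6 border markers that passed the filter in both gates rose, with a median log2 difference of 1.49 beside -0.03 over all genes. The other 5 tested, F13a1, Clec10a, Colec12, Stab1 and Siglec1, passed it through the members only. Lyve1 differed by 2.55 ± 0.49 (adjusted p = 0.0119) and Folr2 by 1.36 ± 0.29 (adjusted p = 0.0170), both in 6 of 6 libraries. Without moderate replicate 1 the adjusted p was 0.0671 for Lyve1 and 0.0735 for Folr2. Stab1, a scavenger receptor of vessel-lining cells and macrophages, was at 22.8 ± 21.0 CPM in members.

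Beside the markers, the complement protease Cfd lay at 308 ± 181 CPM in members and 56.2 ± 22.4 CPM in the low gate (2.33 ± 0.39, adjusted p = 0.00583). Mnda (2.72), Cd300le (2.43), Tgfbi (2.59), Colec12 (3.87), Zfat (3.05) and Fxyd2 (2.35) were the other named rises, all but Fxyd2 past the filter through the members only. Nfkbia (-0.66 ± 0.13), Ccl3 (-0.96 ± 0.18), Ccl4 (-1.18 ± 0.22) and the interferon-induced Cxcl10 (-1.84 ± 0.24, past the filter in the low gate only) were lower in members, and so was Anxa3 (-1.52 ± 0.24), at 828 ± 422 against 2235 ± 468 CPM. S100a9, one of the neutrophil genes highest in sham replicate 1, passed the filter through the low gate only. The MHC class II gene Cd74, at 1155 ± 835 and 729 ± 441 CPM, did not pass here (adjusted p = 0.203). Nfkbia missed the threshold without moderate replicate 1, with an adjusted p of 0.0775.

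The Fabp4 gate held the macrophages with at least 2 UMIs of Fabp4, a fatty acid carrier, that met the other conditions with no limit on Mrc1 or Cd163. In 4 libraries, the mild and the moderate ones, both gates had at least 20 cells. Of 7470 genes, 184 (2.46%) were higher and 284 (3.8%) lower in members, and 151 and 255 of these passed the filter in both gates. The count fell from 468 to 248 without mild replicate 2 and to 251 without moderate replicate 2. Scaled by library size alone, 361 were higher and 216 lower, with the median of all genes at 0.11 in place of 0.03.

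Of the 10 border markers that passed the filter in both gates, 7 were higher in members. Lyve1 lay at 374 ± 197 CPM against 67.8 ± 36.5 (2.37 ± 0.18, adjusted p = 1.45e-05) and Clec10a at 254 ± 137 against 86.7 ± 26.6 CPM (1.45 ± 0.18, adjusted p = 0.000654), both in 4 of 4 libraries. Folr2 lay at 736 ± 63.1 and 656 ± 69.9 CPM, with a log2 difference of 0.09 ± 0.10 (adjusted p = 0.654), and Pf4 at 802 ± 300 and 513 ± 75.7 CPM (adjusted p = 0.0565). Fcgrt, the neonatal Fc receptor that recycles antibodies and albumin, differed by 1.56 ± 0.12 (adjusted p = 1.33e-05).

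Lipid genes were mostly lower in members. Of 25 tested, 16 were lower in members and none higher. Spp1, or osteopontin, lay at 3369 ± 1339 CPM in members and 16375 ± 78.2 CPM in the Fabp4 gate (-2.46 ± 0.20, adjusted p = 2.12e-05). Fabp5 differed by -1.85 ± 0.09, Gpnmb by -0.84 ± 0.07 and the lysosomal proteases Ctsd and Ctsb by -0.86 ± 0.08 and -0.44 ± 0.07. Of 21 tested genes of growth factors and matrix remodelling, 5 were lower in members, 1 was higher and 15 did not pass. The elastase Mmp12 (-2.12 ± 0.28, past the filter in the Fabp4 gate only) and fibronectin, Fn1 (-1.04 ± 0.26), were among the 5. Ctsk, a collagen-degrading protease outside this list, differed by -1.91 ± 0.13. Fn1 was lost without mild replicate 2 or moderate replicate 2 (adjusted p up to 0.168).

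Of the chemokine genes and their receptors, Ccl3 and Ccl4 were higher in members here. Of 16 tested, 8 were higher in members and 1 lower. Ccl3 differed by 0.58 ± 0.11 (adjusted p = 0.0107), Ccl4 by 0.87 ± 0.19 (adjusted p = 0.0177), Cxcl2 by 0.91 ± 0.17 and Ccl6 by 1.38 ± 0.10, each in 4 of 4 libraries. Ccl12 differed by 1.28 ± 0.18. Ccl3 and Ccl4 missed the threshold without mild replicate 1 or moderate replicate 2, with adjusted p up to 0.0654 and 0.0605. Of the iron and heme genes, 6 of 17 were lower in members, Fth1 by -0.39 ± 0.09 and Ftl1 by -0.43 ± 0.09 among them, and 1 was higher. Fth1 was lost without mild replicate 1, mild replicate 2 or moderate replicate 2 (adjusted p up to 0.0911), and Ftl1 without mild replicate 2. The same members were above the microglia gate in both ferritin chains.

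Members with at least 1 UMI of Cd163, a gene of the rule, were compared with those without, to describe how the members varied, in the 6 libraries with at least 5 cells of both kinds. These were 30 and 24 cells in sham replicate 1, 8 and 13 in sham replicate 2, 9 and 44 in mild replicate 2, 14 and 65 and 7 and 39 in the moderate libraries, and 5 and 13 in severe replicate 2. Of 1842 genes tested, 12 (0.651%) were higher and 3 (0.163%) lower in members with Cd163, and 6 and 1 of these passed the filter in both kinds of members. The count was 9 without sham replicate 1 and 26 without moderate replicate 2. With at least 5 UMIs of Mrc1 and Cd163 in place of 3 it was 0 of 1304 genes, 49 of them at an unadjusted p under 0.05, and in cells of 3000 to 10000 UMIs it was 1 of 860, Lyve1. Both settings left 4 of the 6 libraries, fewer cells and fewer genes tested. The members with Cd163 also held more Mrc1 in 6 of 6 libraries, at 731 to 1535 CPM against 304 to 622, so the split orders the cells by both genes of the rule, and its tests bear on other genes along that order, not on a separate kind of cell.

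Lyve1 followed this split in each of the 6 libraries. It lay at 1599 and 1346 CPM in members with Cd163 in the sham libraries, 1522 in mild replicate 2, 1463 and 1143 in the moderate libraries and 2242 in severe replicate 2. In members without Cd163 it lay at 503, 477, 239, 287, 462 and 206 CPM in the same order, so that the 2 kinds did not overlap. The log2 difference was 2.09 ± 0.23 (adjusted p = 0.000388). Clec10a differed by 1.87 ± 0.29 (adjusted p = 0.00659) and Fcgrt by 1.67 ± 0.15 (adjusted p = 4.64e-05), both in 6 of 6 libraries. Colec12 and F13a1 were higher in 6 of 6 libraries as well, but passed the filter through the members with Cd163 only. With at least 5 UMIs of Mrc1 and Cd163 the log2 difference of Lyve1 was 1.48 (adjusted p = 0.133) and that of Clec10a 0.80 (adjusted p = 0.997).

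Further rises in members with Cd163 were Fcna, a ficolin that starts the lectin pathway of complement (at 359 ± 211 against 118 ± 48.2 CPM, past the filter in the members with Cd163 only), Cfd (1.41 ± 0.23), the iron carrier Tf (1.16 ± 0.17), Pmp22 (1.42 ± 0.23) and the interferon-induced tether Bst2 (0.86 ± 0.18). Fcna passed in 3 and Bst2 in 0 of the 6 fits that left out a library. Folr2 lay at 937 ± 152 and 676 ± 111 CPM and did not pass (0.43 ± 0.19, adjusted p = 0.525). Dab2 lay at 545 ± 229 and 305 ± 100 CPM and was higher in 6 of 6 libraries but did not pass (adjusted p = 0.0570).

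The 3 genes lower in members with Cd163 were Spp1, Cd8a and Bcl2a1, a survival gene induced by NF-kappaB. Spp1 lay at 54.0, 0, 727, 896.5, 2526 and 159 CPM with Cd163 and at 2534, 1408, 1609, 5194, 4043 and 4808 CPM without, in the order of the libraries above. It was lower in 6 of 6 libraries and passed the filter through the members without Cd163 only. Cd8a differed by -1.91 ± 0.39 (adjusted p = 0.0361) and Bcl2a1 by -1.07 ± 0.18 (adjusted p = 0.00659). Cd8a was lost without sham replicate 1 or 2, mild replicate 2 or moderate replicate 1, with adjusted p up to 0.107. Apoe, at 13246 ± 10818 and 47063 ± 29349 CPM, did not pass (adjusted p = 0.411).

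**Figure D4:**
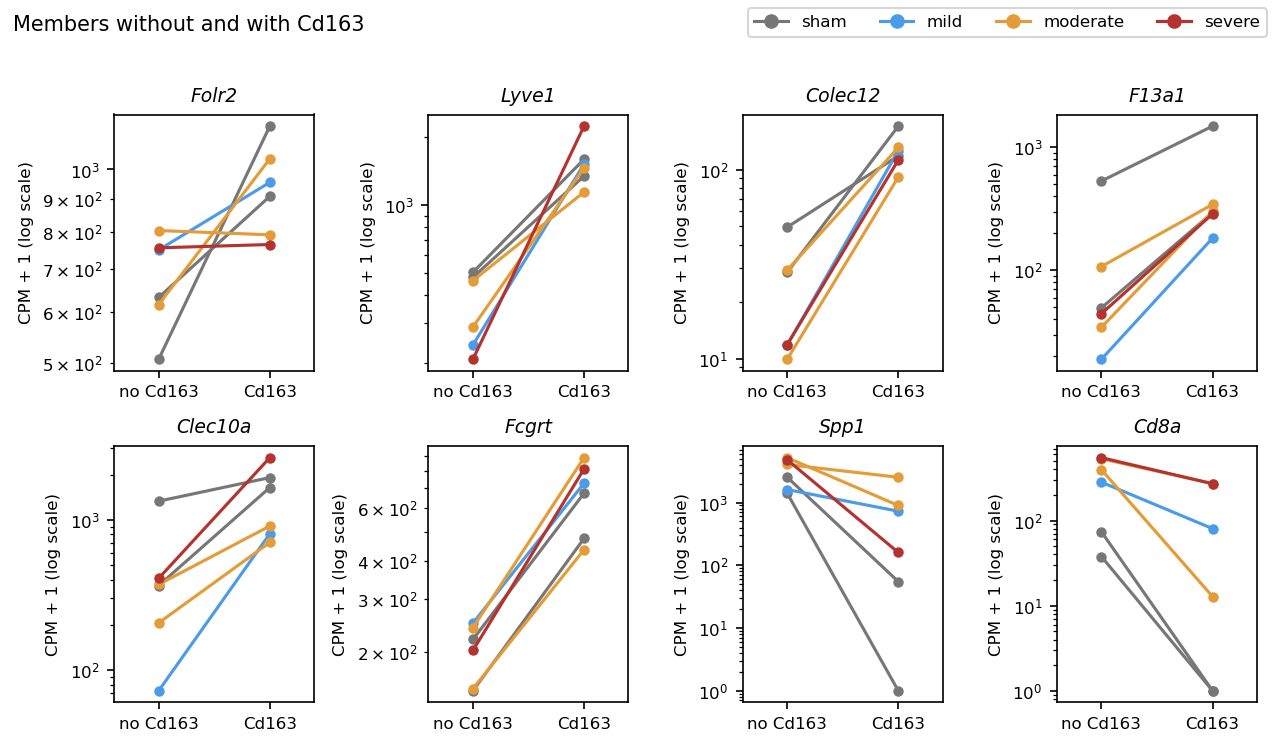
Level of 8 genes in members without and with a UMI of Cd163, as CPM + 1 on log axes that differ between panels, with 1 line per library coloured by group for the 6 libraries with at least 5 cells of both kinds. The lines of Lyve1, Colec12, F13a1, Clec10a and Fcgrt rise and those of Spp1 and Cd8a fall in 6 of 6 libraries.

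Members of the injured groups were compared with those of the sham group over libraries, to ask what injury changed in these cells. The comparisons with sham all share its 2 libraries. In the fits of all 8 libraries any 2 libraries past 18.7 CPM met the filter, so a gene near 0 in 1 group passed it through the other. The mild and moderate comparisons used the 6 libraries with at least 20 members, and their depth set the limit there. Fewer members and less RNA per member cannot be told apart in the summed counts of a gene that only some members carry. In the mild and in the moderate group, 0 of 5886 genes passed in either direction (0.0%) with edgeR, while 918 and 661 genes had an unadjusted p under 0.05 and DESeq2 called 64 and 19. Without sham replicate 2 the edgeR counts were 227 and 127, and without sham replicate 1 they were 60 and 0. Of the remaining libraries, leaving out mild replicate 2, moderate replicate 1 or moderate replicate 2 gave 2, 2 and 1 genes in the mild group.

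In the severe group, with 14 and 18 members, 7 of 5797 genes (0.121%) were higher and 4 (0.069%) lower than in sham. Without sham replicate 2 this count of 11 was 128, and without sham replicate 1 it was 6. Of these 11 genes, 9 separated the severe from the sham libraries in the same direction in the microglia gate, Rps19 and Sumo4 among them, where 12.9% of all genes tested separated upward and 27.8% downward. Against the mild group, 15 genes (0.259%) were higher and 12 (0.207%) lower in severe members, and 24 of these 27 also separated the groups in the same direction in the microglia gate and 24 in T cells. Over all genes tested, 12.8% separated upward and 46.7% downward in the microglia gate, and 15.7% and 36.5% in T cells. Library and severity cannot be told apart here. The counts of 11 and 27 were not split by whether a gene met the filter in both groups. Leaving out any library moved the count of 27 by more than 1.5 times, to between 3 without mild replicate 1 and 158 without sham replicate 1.

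Among the genes of the severe against mild comparison were Apod, a lipid carrier of glia, at 20.3 ± 22.8 CPM in severe and 3332 ± 1519 CPM in mild members, and Klk6, a protease of oligodendrocytes, at 4.05 ± 5.72 and 441 ± 64.6 CPM. Both moved with the oligodendrocyte markers, which summed to 63.2 and 158 CPM in severe and to 2071 and 3541 CPM in mild members. Rps19 differed by 4.88 ± 0.38 (adjusted p = 0.00065), LOC108349682 by 5.16 and LOC108351137 by 3.91. The last symbol stands for 2 genes that went opposite ways. The one called lay at 2053 and 1250 CPM in severe and 146.5 and 108.5 CPM in mild members. The other lay at 446.9 and 242.7 CPM in severe and 1123 and 1202 CPM in mild members. Gem, a small GTPase gene, lay at 56.1 ± 22.1 CPM in severe members and 4.26 ± 1.65 CPM in mild members, and it had 0 UMIs in the sham members, at least 14.5-fold lower than in severe members. Nedd4 and AABR07002792.2 had 0 UMIs in severe members, at least 9.97-fold and 10.9-fold lower than in mild members, and AABR07025010.1 at least 9.30-fold, against a floor of 3 UMIs over the group. Gem, Nedd4, Apod and Klk6 each passed in 2 of the 8 fits that left out a library.

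With the 3 injured groups together, a comparison chosen after the data had been seen, 6 of 5797 genes (0.104%) were higher and 18 (0.311%) lower than in sham. In 20 of these 24 genes the 6 injured libraries did not overlap the 2 sham libraries, as in 12.2% of all genes tested, and since the same values gave the calls this adds nothing to them. Of the 6 higher genes 1, Cd8a, and of the 18 lower genes 11 met the filter in both the injured and the sham libraries. The others that met it only where they were higher, among them Cd8b, Apoc1, Dusp2, Ccl24 and Tgfb2, are given without a p. The count was 153 without sham replicate 2 and 0 without severe replicate 2, and without sham replicate 1, mild replicate 2, either moderate replicate or severe replicate 1 it was between 8 and 12. With at least 5 UMIs of Mrc1 and Cd163 in place of 3, none passed in 6 libraries.

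Cd8a and Cd8b encode the chains of CD8, which marks killer T cells and, in rats, is also carried by macrophages. Cd8a lay at 19.3 and 57.1 CPM in sham members, 438 and 254 in mild, 345 and 499 in moderate, and 624 and 477 CPM in severe members. The injured libraries were all above the sham libraries, with a log2 difference of 3.71 ± 0.52 (adjusted p = 0.0214). Cd8b lay at 4.82 and 12.7 CPM in sham and between 38.8 and 129 CPM in injured members. It met the filter through the injured members only, so this is a description. Without sham replicate 1 the log2 difference of Cd8a was 2.78 and the adjusted p 0.0929, and without severe replicate 2 it missed the threshold as well.

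The Cd3 genes, which define T cells, were near 0 in members. The 3 of them together had 6 UMIs in all 318 members, in 5 cells. A UMI of Cd8a or Cd8b was found in 176 members, and 1 of these also had a UMI of Cd3. The share of members with a CD8 UMI was 5.56% and 28.6% in sham, 87.9% and 75.5% in mild, 53.2% and 78.3% in moderate, and 71.4% and 55.6% in severe libraries. Thinned to 1000 UMIs per cell it was 0% and 14.3% in sham, 33.3% and 17.0% in mild, 21.5% and 30.4% in moderate, and 42.9% and 22.2% in severe libraries. In cells without RNA of Ptprc, Tyrobp, Nkg7 or Cd3 and with at most 2 UMIs of C1q, which should lack CD8, the share was at most 11.6%, and at most 1.33% after thinning, with median depths of 5751 to 16636 UMIs. In the microglia gate it was 25.4% and 11.6% in sham and 19.0% to 87.5% in injured libraries, above the members in sham replicate 1 and moderate replicate 2, and at most 25% after thinning. In T cells Cd8a was at 155 and 67.2 CPM in the sham libraries, the second from 3 cells, and between 219 and 500.4 CPM in the injured ones. In the microglia gate it was at 14.6 and 12.2 CPM in sham and between 17.7 and 284 CPM in injured libraries, below the members in 8 of 8 libraries.

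The sham members held Cd163 more often, so the same genes were read in the members without Cd163. There Cd8a lay at 36.8 and 72.8 CPM in sham and 476, 282, 395, 533, 654 and 548 CPM in injured libraries, which did not overlap. Apoc1, an apolipoprotein of lipid-laden macrophages, lay at 0 and 56.6 CPM in sham and between 526 and 2663 CPM in injured members without Cd163.

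Over all members Apoc1 lay at 0 and 44.4 CPM in sham, 525 and 606 in mild, 915 and 520 in moderate, and 2542 and 1562 CPM in severe members. The injured libraries were all above the sham libraries. In T cells Apoc1 was at 0.514 and 0 CPM in sham, the second from 3 cells, and between 69.3 and 854 CPM in injured libraries. Dusp2, a phosphatase that turns off MAP kinases, lay at 3.21 and 0 CPM in sham members, 63.3 and 46.5 in mild, 102 and 52.4 in moderate, and 219 and 198 CPM in severe members. Like Apoc1, it met the filter through the injured members only. In T cells Dusp2 was at 98.7 to 448 CPM in injured libraries and 44.2 CPM in sham replicate 1. It had 0 UMIs in sham replicate 2, whose 3 T cells held 14872 UMIs in all, so that 1 UMI was 67.2 CPM. Pttg1 and the vesicle protein gene Syngr1 were the other rises, with 1 UMI each in all sham members.

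**Figure D5:**
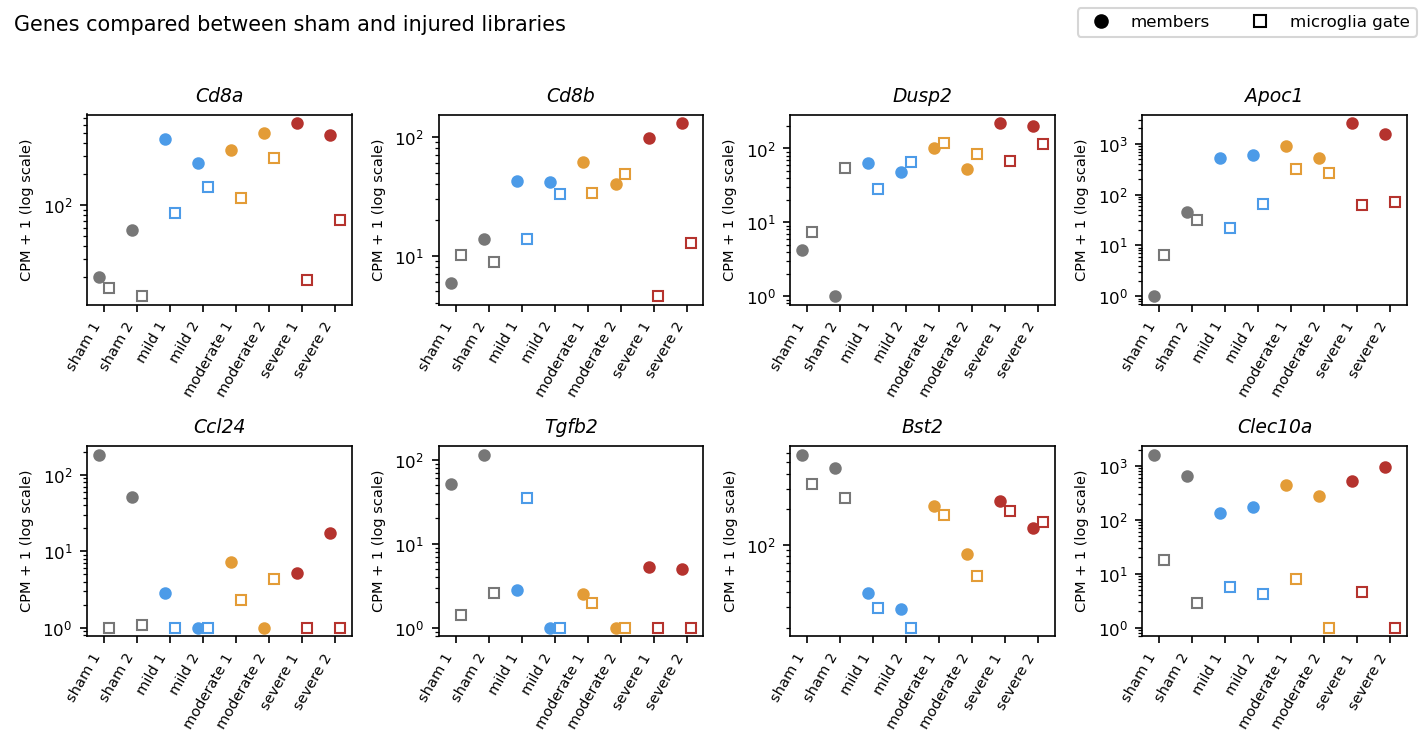
Level of 8 genes per library in members (filled circles) and in the microglia gate (open squares), as CPM + 1 on log axes that differ between panels. Cd8a, Cd8b, Dusp2 and Apoc1 are higher and Ccl24, Tgfb2 and Bst2 lower in the members of all 6 injured libraries than in both sham libraries, while Clec10a overlaps.

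Ccl24, or eotaxin-2, a chemokine of alternatively activated macrophages, lay at 183 and 50.7 CPM in sham members and at 1.81, 0, 6.16, 0, 4.22 and 16.2 CPM in injured members. It met the filter through the sham members only, so its direction is a description. In the microglia gate Ccl24 was at most 3.38 CPM. In members without Cd163 it was at 91.9 and 0 CPM in sham, so the sham libraries overlapped the injured ones there.

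Tgfb2, a growth factor of the TGF-beta family, lay at 49.8 and 114 CPM in sham members and at 1.81, 0, 1.54, 0, 4.22 and 4.05 CPM in injured members. Tgfb2 too met the filter through the sham members only. In members without Cd163 Tgfb2 was at 33.7 and 146 CPM in sham and at most 5.43 CPM in injured libraries. The counts are small, with 49 UMIs in sham and 4 in injured members.

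Other falls were the interferon-induced genes Bst2 (-2.43 ± 0.34) and Slfn4 (-3.59 ± 0.54), the chemokine receptor Ccr1, the inhibitory lectin Clec12a (-2.39 ± 0.38), Clec4a, Mnda and the Notch-pathway factor Rbpj (-1.52 ± 0.25). Of these, Ccr1 and Clec4a met the filter through the sham members only. Each of the others was lost without sham replicate 1 and without severe replicate 2, and Rbpj passed in 1 of the 8 fits that left out a library. Bst2 lay at 581 and 444 CPM in sham members and between 27.9 and 236 CPM in injured ones, and it separated the groups in the microglia gate as well, at 328 and 247 against 18.9 to 195 CPM. S100a9 and S100a8 are among the 18, and they rest on sham replicate 1, with 6369.7 and 0 CPM of S100a9 in the sham members. Over the 24 genes, 8 separated the groups in the same direction in the microglia gate, where 4.88% of all genes tested separated upward and 4.28% downward. No such count is given for T cells, since sham replicate 2 held 3 of them.

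Of the border markers none passed in any group, but their values lay mostly below sham. Over the 11 tested, the median log2 difference was -1.31 in the mild, -1.10 in the moderate and -0.48 in the severe group, beside 0.02, 0.01 and -0.07 over all genes. Clec10a differed by -2.95 ± 0.48 in the mild (adjusted p = 0.0716), -1.74 ± 0.46 in the moderate (adjusted p = 0.264) and -0.44 ± 0.48 in the severe group (adjusted p = 0.758). Lyve1 lay at 1024 and 666 CPM in sham, 92.3 and 414 in mild, 441 and 550 in moderate, and 379 and 724 CPM in severe members. Severe replicate 2 thus lay between the 2 sham libraries. Sham members also held more Mrc1 and Cd163, which chose the cells, and the part of this in the values was not tested. In members without Cd163 Clec10a was at 1330 and 364 CPM in sham. It was at 71.8, 370, 205 and 407 CPM in mild replicate 2, the moderate libraries and severe replicate 2, so it overlapped. Lyve1, at 503 and 477 against 239, 287, 462 and 206 CPM there, did not overlap. Folr2 differed by -0.14, -0.15 and -0.07 in the 3 groups.

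Spp1 lay at 1354 and 1103 CPM in sham members, 3506 and 1488 in mild, 4633 and 3847 in moderate, and 9768 and 3625 CPM in severe members. All 6 injured libraries were above both sham libraries, but the log2 difference of 1.71 ± 0.46 did not pass (adjusted p = 0.156). In T cells Spp1 moved with them, at 56.0 and 67.2 CPM in sham, the second from 3 cells, and 885 to 7122 CPM in injured libraries, above the members in the 4 mild and moderate ones. Of the 24 lipid genes tested, 20 had a positive difference, with a median of 0.77 beside -0.06 over all genes. Only 1, Apoc1, was called, and it met the filter through the injured members only. Gpnmb, at 300.3 and 2149 CPM in sham and 2444 to 3459 CPM in injured members, did not pass (adjusted p = 0.440), and in T cells it was at 7.703 and 0 CPM in sham and 174 to 1305 CPM in injured libraries. The part of free RNA in these levels was not tested. Of the 16 tested iron and heme genes and the 5 of MHC class II, none passed in any group.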

How the data were processed

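The files hold raw UMI counts of 32623 genes per cell, which the authors made with Cell Ranger (5.0.1 per the file headers, build Rnor_6.0) and deposited without normalization or pooling. Libraries held 31482153 to 131045446 UMIs in total. Cells of each gate were summed per library and tested with edgeR 4.0.16 (R 4.3.3; TMM, filterByExpr, quasi-likelihood test, Benjamini-Hochberg at 0.05), with the library as a block between gates and all groups in 1 fit between groups. Genes of the rule and mitochondrial genes were left out of the tests. CPM are the summed UMIs scaled by their total, without TMM. Gates needed 20 cells per library. The severe libraries hold fewer members, so their comparisons and that of all injured groups used at least 10, and the Cd163 split at least 5. Shares were tested with scipy 1.17.1 and doublets were scored with Scrublet in scanpy 1.11.5. The tests were also run on simulated counts, whose outcome is not reported here. DESeq2 1.42.0, other scalings, filters, depths and left-out libraries were alternatives. Named genes were the 10 (between groups 5) largest changes each way among genes past the threshold, at 50 CPM or more in the higher gate, with every library on 1 side, plus listed genes. The members and gene lists were chosen with earlier results of these data known. Genes of the lists that the files do not name were not analysed here. Some genes that were tested are not reported here, though they count in the totals of their lists. Same-numbered replicates of different groups did not deviate together, with correlations from -0.164 to 0.175.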

Additional observations from a re-analysis of the deposited data

Results flagged for a closer look

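Spp1 against the microglia gate differed between groups in sign. In the mean of log2(CPM + 1) the members were -1.26 from the microglia gate in the 2 sham libraries and 0.68 in the 2 mild libraries, a gap of 1.95. By library the differences were -1.91 and -0.62 in sham, 1.31 and 0.05 in mild, and 0.41 and -1.38 in moderate replicates 1 and 2. The severe libraries, at 3.22 and 0.21, had under 20 members and did not enter this comparison. Mild replicate 2 was thus nearly level with the microglia gate, and the moderate libraries lay on either side of it. This difference between groups was not tested. Over the 6 libraries Spp1 did not pass the test between members and the microglia gate (edgeR, adjusted p = 0.653).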

How the results depend on the processing

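The limits of these results are the small number of members, 14 to 79 per library, and of libraries, 2 per group. The numbers of calls against the microglia, Mrc1/Cd163-low and Fabp4 gates and between members with and without Cd163 were 753, 385, 468 and 15, and those of mild, moderate and severe against sham, severe against mild and all injured groups against sham were 0, 0, 11, 27 and 24. For results that moved the cause was not tested, beyond fewer cells or more genes tested where the setting says so.

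Without the filter on low counts the 9 counts were 1250, 794, 910, 109, 346, 277, 242, 339 and 311. With DESeq2 there were 310 calls against the Fabp4 gate, 23 for the Cd163 split and 64, 19, 28, 110 and 47 between groups. With at least 5 UMIs of Mrc1 and Cd163 there were 182 against the microglia gate, 198 against the low gate, 0 for the Cd163 split, 237 for moderate, 0 for severe against sham, 2 against mild and 0 for all injured. That limit left 3 libraries against the microglia and low gates, 4 for the Cd163 split and 1 library each in sham for the moderate comparison and in mild and severe for the others, a lone library being assumed to vary like the other groups. In cells of 3000 to 10000 UMIs the first 4 were 259, 195, 118 and 1. Without the top doublet scores the Cd163 split had 23, mild 6, severe 17 and severe against mild 48. Library size alone gave 43 for severe against mild, 13 of them higher, with the median of all genes at -0.27 in place of -0.04. It moved that median from -0.07 to -0.21 for severe against sham. A minimum of 10 members gave 7 for mild. Fits of only the 2 groups gave 1 for severe against sham and 179 against mild.

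Leaving out 1 library gave 422 to 767 against the microglia gate, 122 to 324 against the low gate, 248 to 337 against the Fabp4 gate and 9 to 26 for the Cd163 split. Between groups it gave 0 to 227 for mild, 0 to 127 for moderate, 6 to 128 for severe, 3 to 158 for severe against mild and 0 to 153 for all injured groups. Replicate numbers did not pair the samples, and with the replicate block the counts between groups were 8, 2, 14, 42 and 18. Spearman's rho of the share with drop height was 0.12 without the 2 severe libraries (0.1195) and -0.68 to -0.31 when 1 library was left out. S100a9 in injured against sham members was -9.33 to 5.07 on the log2 scale when 1 library was left out, reversing without sham replicate 1. Of 3045 pairs of a named gene and an alternative, 2488 counted as the same, 476 lost and 80 gained the call, and 1 reversed. Reversals were counted only for genes called in the main fit. A change of sign in a gene not called there counted as the same. At least 5 UMIs of Mrc1 and Cd163 against the Fabp4 gate and for mild, and 10 cells for the Cd163 split, could not be fitted, since too few libraries remained.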
